A study of Mus musculus with 18 samples.

Results

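The genes described here are 56 ribosome biogenesis factors, taken by symbol from a fixed list of nucleolar and pre-ribosomal proteins, among the 22524 genes counted in mouse liver. Each symbol was matched to 1 Ensembl identifier in the count lists, and all 56 passed the filter on low counts that left 13353 genes for testing, with at least 55 reads in every mouse. Their RNA was compared between *Rps2*-A226Y mice (A226Y), whose small ribosomal subunit carries an error-prone form of the protein RPS2, and wild-type controls (WT). The study measured such errors in transfected cultured cells and not in the liver. The question was whether the RNA of the factors that build ribosomes differs in liver with this form of RPS2. A second question was whether factors of the small and of the large subunit differ alike.

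Both groups were female and 15 months old, with 10 A226Y and 8 WT mice and 1 liver library per mouse. A226Y mice were heterozygous for an *Rps2* allele with a mutated exon 3, kept silent by a stop cassette between loxP sites until Cre recombinase removes it. Cre was driven by the CMV promoter, which is active in all tissues, and the WT controls carried the same CMV-Cre transgene. As a model the A226Y mouse is mosaic: removal of the cassette was never complete, so the liver mixes cells that express mutant *Rps2* with cells in which that allele stays silent and which have a single working copy. The allele was made in 129/Sv embryonic stem cells and backcrossed to C57BL/6. Whole liver was sequenced, so fewer cells of a type and less RNA per cell cannot be told apart.

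Ribosomes are assembled in the nucleolus. RNA polymerase I transcribes a long precursor of the ribosomal RNAs, small nucleolar ribonucleoproteins (snoRNPs) guide its chemical modification, and a large early particle, the small subunit processome, folds and cuts the part that becomes the small subunit. Separate sets of factors mature the large subunit, and the last steps of both take place in the cytoplasm. In adult liver most hepatocytes do not divide, but they secrete large amounts of protein and keep making ribosomes.

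The targeted gene was examined first. *Rps2* (ENSMUSG00000044533, chromosome 17, 24718116 to 24721929, plus strand, GRCm38) had 104 CPM (counts scaled to library size with the TMM method) in the lowest, 109 in the median and 143 in the highest WT mouse, and 46.9, 72.5 and 83.0 CPM in the A226Y mice. Every A226Y mouse lay below every WT mouse. The log2 fold change was −0.73, with a standard error (SE) of 0.11 and an adjusted p of 0.000772 from edgeR's quasi-likelihood test. Total counts per mouse ranged from 23850565 to 62126131, A226Y mouse 23 being the deepest and the next at 34918732, and among 73 pairs of mice of one genotype none differed by as little as counting noise (chi-square per degree of freedom from 19.2 to 448.8).

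The liver label was checked with 8 lists of cell type markers. Of 7 hepatocyte markers *Cps1* was higher and *Asgr1* lower, and their summed level ranged from 71316 to 149600 CPM in A226Y and from 93609 to 175860 CPM in WT mice. Of 7 Kupffer cell and macrophage markers *Clec4f* was lower and the others did not pass, with all 7 log2 fold changes negative (median −0.44) and summed levels of 255 to 898 CPM in A226Y against 387 to 836 CPM in WT mice. This count depended on single mice: without A226Y mouse 29, whose macrophage score of 0.82 was the highest of its genotype, 5 of the 7 were lower (*Clec4f* −0.83, *Cd5l* −0.74, *Vsig4* −0.59, *Csf1r* −0.58 and *Cd68* −0.56, median of the 7 −0.58). It was 3 without A226Y mouse 5 or WT mouse 6, 2 without WT mouse 24 and 0 without WT mouse 14. Of 7 stellate cell markers *Colec11*, *Col1a1* and *Col3a1* were lower, and the mean level of the 7, centred per gene on the log2 scale, was below the WT mean in all 10 A226Y mice (means of −0.10 in A226Y and 0.13 in WT mice). Their summed levels, 339 to 397 against 334 to 415 CPM, were mostly those of *Dcn* (means of 246 and 218 CPM), whose log2 fold change was 0.18. Without WT mouse 6 *Dcn* was called higher (0.22, adjusted p = 0.0259, edgeR's quasi-likelihood test), opposite to the 3 markers called lower. None of 7 sinusoidal endothelial, 5 cholangiocyte, 7 lymphocyte, 5 dividing cell and 5 erythrocyte markers passed in either direction. Their summed levels in A226Y and WT mice were 264 to 400 and 278 to 379 CPM for the endothelial list, 13.1 to 29.9 and 12.1 to 25.9 CPM for the cholangiocyte list, 4.85 to 16.9 and 5.47 to 24.1 CPM for the lymphocyte list, 5.41 to 12.6 and 5.22 to 13.99 CPM for the dividing cell list and 164 to 422 and 208 to 764 CPM for the erythrocyte list. Without A226Y mouse 29, which also had the lowest hepatocyte marker score of its genotype, *Nkg7* of the lymphocyte and *Mki67* and *Top2a* of the dividing cell markers were lower, as was *Top2a* without WT mouse 6. The counts for the hepatocyte markers were the same with any 1 mouse left out. Any part of these cell type markers in the results below was not tested.

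Among the 56 factors, 7 were higher in A226Y mice and none was lower at an adjusted p under 0.05. The 7 were *Wdr43*, *Wdr46*, *Ltv1* and *Pno1* of the small subunit and *Gnl2*, *Ebna1bp2* and *Ftsj3* of the large subunit. They make up 12.5% of the factors, while 7.27% of all tested genes were called higher and 7.03% lower. DESeq2 also called 7 factors higher and 0 lower, and limma-voom 6 higher and 0 lower. At an unadjusted p under 0.05 the quasi-likelihood test gave 11 higher factors and 2 lower, the lower ones being *Npm1* and *Utp3*. With 4 surrogate variables as covariates no factor passed in either direction (1 higher and 2 lower at an unadjusted p under 0.05), and the count over all genes fell from 1910 to 304. With library size as the only scaling 67.9% of the calls over all genes were higher, against 50.8% with TMM, and 7 factors were still called higher.

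The differences were small. Log2 fold changes of the 56 factors ran from −0.18 for *Npm1* to 0.36 for *Ltv1*, that is from 0.886-fold to 1.28-fold. Of these values 39 were positive and 17 negative, with a median of 0.08 against −0.00 over all tested genes. With the 4 surrogate variables this lean was gone: 25 of the 56 values were positive and the median was −0.02. The median SE was 0.08. For 48 of the 49 factors that did not pass, the 95% interval of the log2 fold change, taken from its SE, stayed within a 1.5-fold change in both directions, and *Rrp12* was the exception (−0.06 to 0.65). In no factor did the mice of one genotype all lie above those of the other. Among the 13353 tested genes this held for only 47 with A226Y mice higher and 38 with them lower. The overlap thus does not set these factors apart.

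**Figure D1:**
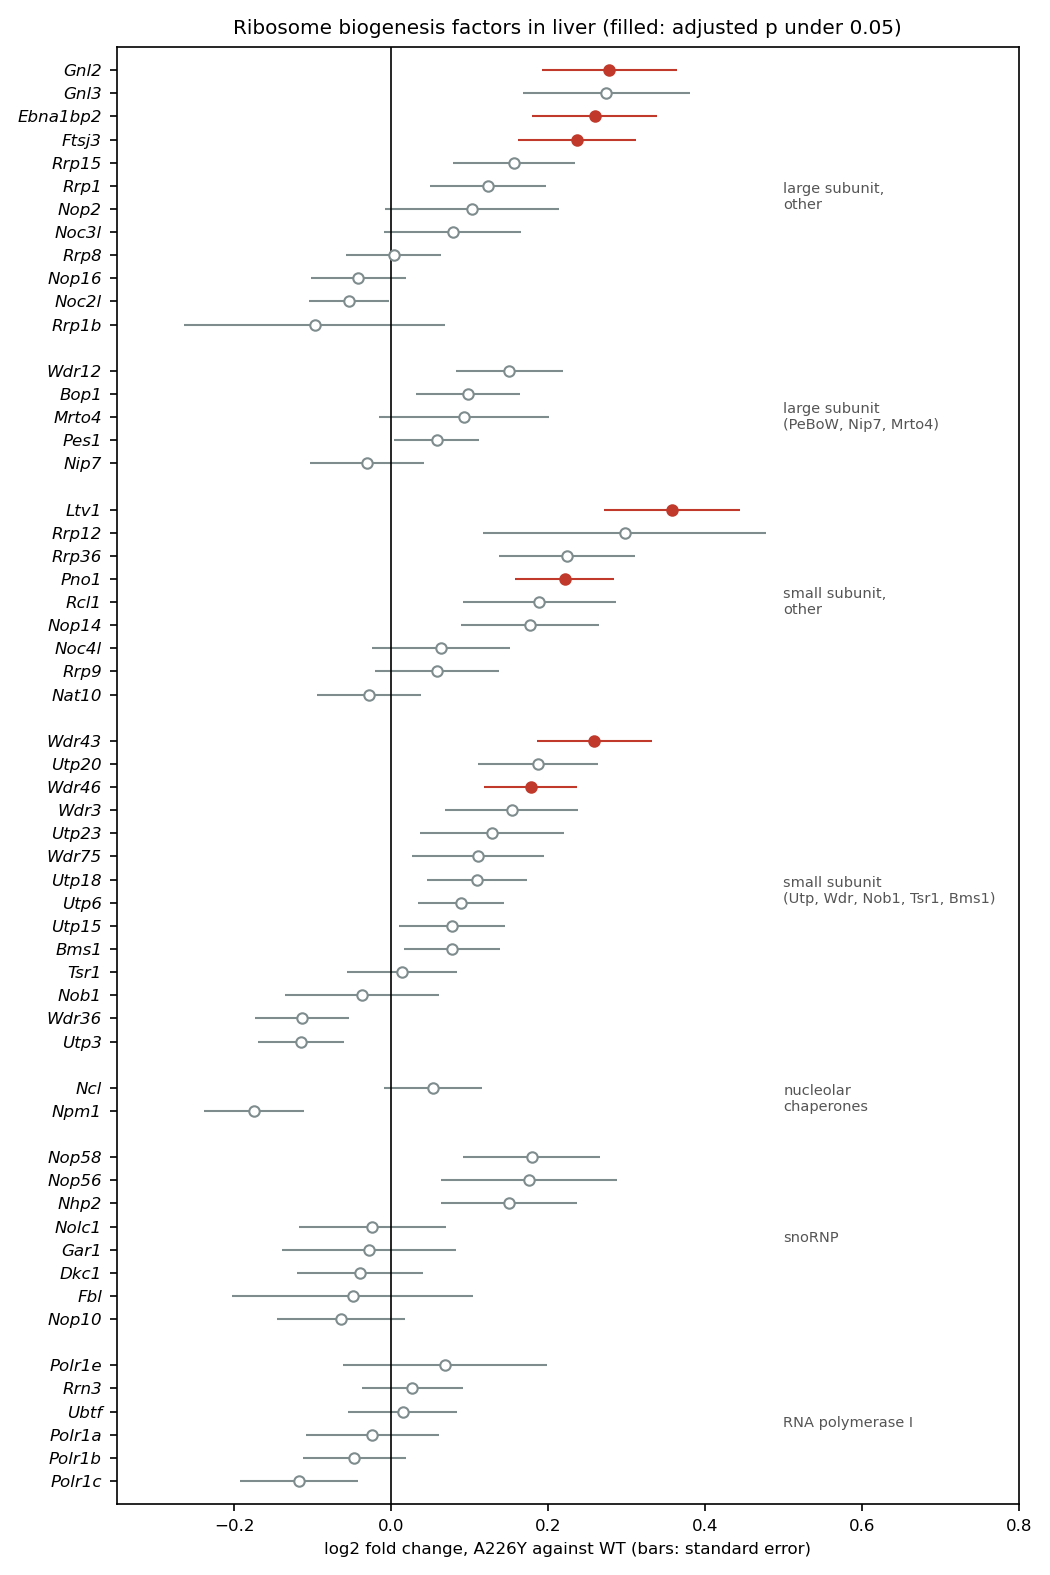
Log2 fold change of A226Y against WT for the 56 factors (horizontal axis), grouped by role, with bars of 1 SE; filled red points have an adjusted p under 0.05. The 7 filled points all lie to the right of 0, in the small and large subunit groups. None lies among the 6 RNA polymerase I, 8 snoRNP or 2 chaperone genes. With 7.27% of all tested genes called higher, these groups are too small for a contrast between roles to be read from this.

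The sequences below lie close to the RefSeq start of 4 of the 7 genes, because they share a motif there, and they were picked after the calls were known. They are 25 to 30 bases around the E-box CACGTG, in capitals, a palindrome that reads the same on both strands and that Myc with Max and other factors of the same class can bind. They come from RefSeq promoter windows (250 bases before to 50 after the start of transcription, GRCm38.p6) and are written 5′ to 3′ on the strand of the gene. The windows cover chr17:71616220-71616249 (plus strand) for *Wdr43*, chr17:33940699-33940728 (plus strand) for *Wdr46*, chr10:13193092-13193121 (minus strand) for *Ltv1* and chr11:17211540-17211564 (minus strand) for *Pno1*.
Wdr43: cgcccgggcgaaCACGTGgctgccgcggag
Wdr46: aagggagtttcgCACGTGgatcgttgttcg
Ltv1: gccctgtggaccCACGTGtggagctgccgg
Pno1: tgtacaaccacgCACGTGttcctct
Counted from the RefSeq start, the motif began 17 bases after that of *Wdr43*, 28 bases after that of *Ltv1* and 37 bases after that of *Pno1*, and 12 bases before that of *Wdr46*. The gene starts given in the next paragraphs are those of GENCODE, which lie elsewhere: from them the motif began 337 bases inside *Wdr43*, 51 inside *Wdr46*, 59 inside *Ltv1* and 16 inside *Pno1*. RefSeq windows were found for 48 of the 56 factors, and *Gnl2* was among the 8 without one. The E-box was present in 4 of the 6 called factors with a window, the others being *Ebna1bp2* and *Ftsj3*, and in 6 of the 42 factors that did not pass (14.3%). In all, 10 of the 48 factors held it (20.8%), compared with 11.4% of 10357 tested genes and 8.09% of all 27025 genes with a window. The motif CCGGAAG, the core bound by ETS factors, searched on both strands, was present in 20 of the 48 factors (41.7%) against 19.0% of tested genes, and in 3 of the 6 called factors. TATAAA, the core of the TATA box, was in 3 of the 48 factors (6.25%) against 9.40% of tested genes. None of the 3 motifs contains another. These are matches of letters in a window and no binding was measured. *Myc* itself had 4.17, 5.80 and 8.04 CPM (lowest, median and highest) in WT and 4.40, 6.76 and 11.4 CPM in A226Y mice. Its groups overlapped over most of their range, and its log2 fold change was 0.27 (SE 0.16, adjusted p = 0.273, edgeR's quasi-likelihood test).

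The first factors of the small subunit act in the processome. *Wdr43* (ENSMUSG00000041057, chromosome 17, 71615895 to 71659031, plus strand), the counterpart of yeast Utp5, belongs to the subcomplex that binds the earliest part of the precursor while it is being transcribed. Its level was 18.6, 23.1 and 26.3 CPM (lowest, median and highest) in WT mice and 23.5, 27.1 and 31.7 CPM in A226Y mice. All 10 A226Y mice lay above the WT median, 6 of them above every WT mouse, with A226Y mouse 7 highest and WT mouse 14 lowest. The log2 fold change was 0.26 (SE 0.07, adjusted p = 0.0238, edgeR's quasi-likelihood test), and the two-sided exact permutation test over the mice gave p = 0.00286.

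*Wdr46* (ENSMUSG00000024312, chromosome 17, 33940660 to 33949697, plus strand), the counterpart of Utp7, is a scaffold protein of the same particle. It was measured at 20.5, 22.9 and 25.5 CPM in WT and at 22.6, 25.0 and 29.9 CPM in A226Y mice. The groups overlapped more than for *Wdr43*: 4 A226Y mice exceeded every WT mouse, and A226Y mouse 5 lay below the WT mean. Its log2 fold change of 0.18 (SE 0.06) was the smallest of the 7 and closest to the threshold (adjusted p = 0.0486, edgeR's quasi-likelihood test; two-sided exact permutation p = 0.00608).

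Later steps of the small subunit were represented by *Ltv1* and *Pno1*. *Ltv1* (ENSMUSG00000019814, chromosome 10, 13178140 to 13193168, minus strand) encodes a factor that sits on the head of the maturing small subunit and leaves before it is used in translation. WT mice had 11.3, 13.05 and 16.5 CPM and A226Y mice 13.7, 17.2 and 20.01 CPM. No A226Y mouse lay below the WT mean and 7 exceeded every WT mouse, with A226Y mouse 29 highest and mouse 5 lowest. With a log2 fold change of 0.36 (SE 0.09, adjusted p = 0.0110, edgeR's quasi-likelihood test) it changed most among the 56 factors, and the two-sided exact permutation p was 0.00146.

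*Pno1* (ENSMUSG00000020116, chromosome 11, 17203198 to 17211568, minus strand) encodes the RNA-binding partner of the endonuclease NOB1, which makes the final cut of the small subunit RNA. Levels were 29.9, 35.7 and 39.1 CPM in WT and 34.99, 41.1 and 46.3 CPM in A226Y mice. Here 6 A226Y mice exceeded every WT mouse, and the order of single mice differed from that of the other 6 called factors, since A226Y mouse 29 was the lowest of its genotype and WT mouse 14 the highest. The log2 fold change was 0.22 (SE 0.06, adjusted p = 0.0254, edgeR's quasi-likelihood test; two-sided exact permutation p = 0.00363). *Nob1* itself was measured at 8.14, 10.4 and 11.9 CPM in WT and 8.12, 9.61 and 12.8 CPM in A226Y mice, with a log2 fold change of −0.04 (SE 0.10, adjusted p = 0.837, edgeR's quasi-likelihood test).

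In the large subunit, *Gnl2* (ENSMUSG00000028869, chromosome 4, 125016585 to 125055380, plus strand) encodes a nuclear GTPase bound to the particle before its export. WT mice had 20.04, 26.1 and 28.8 CPM and A226Y mice 25.2, 30.02 and 37.3 CPM. A226Y mouse 29 was highest, WT mouse 14 lowest, and 6 A226Y mice lay above every WT mouse. The log2 fold change was 0.28 (SE 0.09, adjusted p = 0.0360, edgeR's quasi-likelihood test; two-sided exact permutation p = 0.00745).

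*Ebna1bp2* (ENSMUSG00000028729, chromosome 4, 118620799 to 118627776, plus strand), the counterpart of yeast Ebp2, acts early in the nucleolus. Its CPM values were 20.9, 24.4 and 27.0 in WT and 24.3, 28.5 and 37.6 in A226Y mice. The top value came from A226Y mouse 23, and 7 A226Y mice lay above every WT mouse. It rose by 0.26 on the log2 scale (SE 0.08, adjusted p = 0.0356, edgeR's quasi-likelihood test; two-sided exact permutation p = 0.00617).

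*Ftsj3* (ENSMUSG00000020706, chromosome 11, 106249142 to 106256079, minus strand) encodes a methyltransferase of the large subunit precursor. Its RNA was at 32.7, 39.9 and 45.5 CPM in WT and at 39.2, 46.4 and 55.3 CPM in A226Y mice. No A226Y mouse lay below the WT mean and 6 exceeded every WT mouse, with A226Y mouse 29 highest and WT mouse 14 lowest. The log2 fold change was 0.24 (SE 0.08, adjusted p = 0.0406, edgeR's quasi-likelihood test; two-sided exact permutation p = 0.00638).

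**Figure D2:**
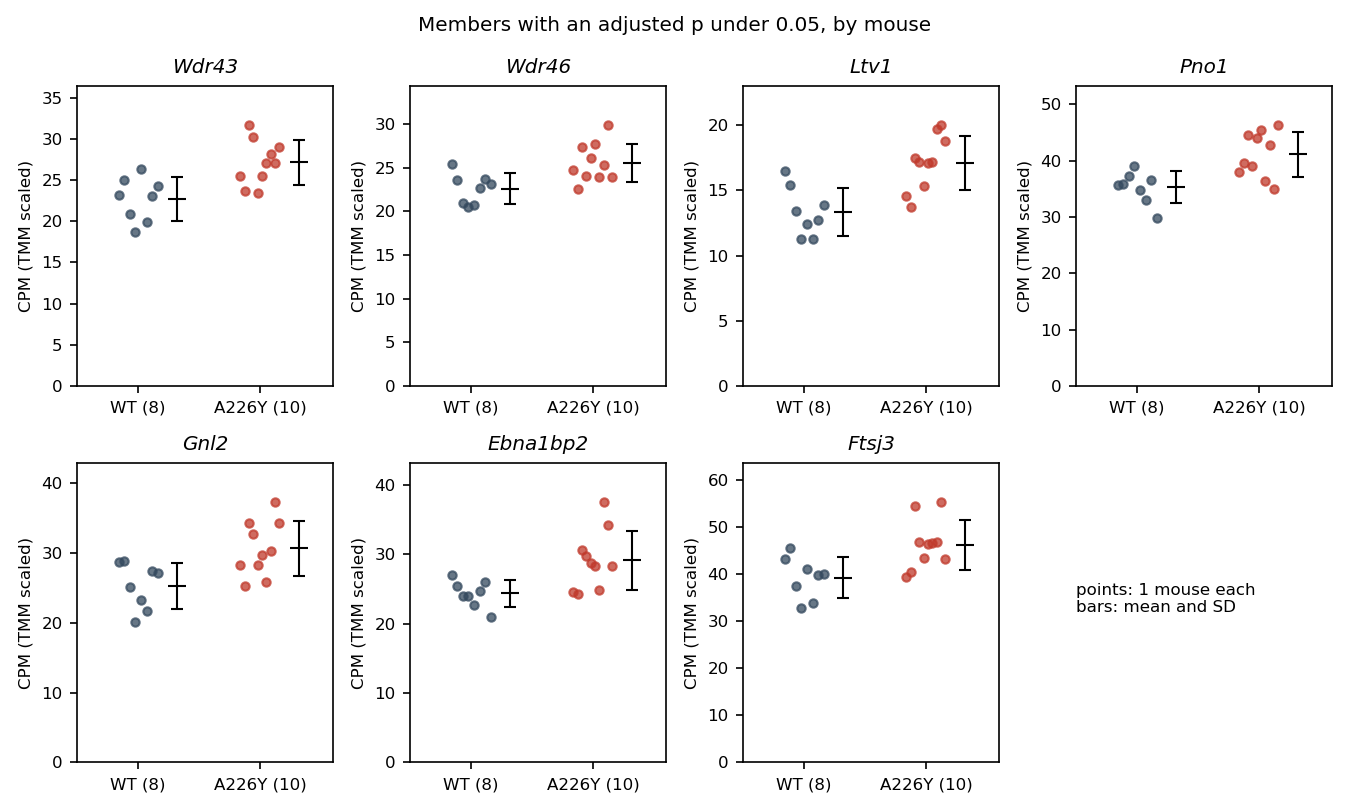
CPM of the 7 factors with an adjusted p under 0.05, 1 point per mouse, with the mean and SD of 8 WT and 10 A226Y mice beside the points; each vertical axis starts at 0. The groups are shifted but overlap in every panel, as for *Ltv1*, with 11.3 to 16.5 CPM in WT and 13.7 to 20.01 CPM in A226Y mice.

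Single mice decided several of these calls. Leaving out each of the 18 mice in turn, *Ltv1* and *Pno1* passed every time (highest adjusted p = 0.0260 and 0.0497), *Wdr43* 15 times, *Gnl2* and *Ebna1bp2* 11 times each, *Ftsj3* 7 times and *Wdr46* 4 times. Without WT mouse 13, 14 or 24 the number of factors higher fell from 7 to 2, the 2 being *Ltv1* and *Pno1*. Without A226Y mouse 7 or 11 or WT mouse 21 it fell to 3, with *Wdr43* in addition. Without A226Y mouse 29 it was 5, since *Wdr46* (0.15, adjusted p = 0.0605) and *Ftsj3* (0.21, adjusted p = 0.0501, both edgeR's quasi-likelihood test) no longer passed. The log2 fold changes of the 7 stayed positive in each of these fits, the lowest being 0.15.

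Across settings the sign of the 7 held and the calls did not. Other scalings, filters and tests left between 5 and 7 of them past the threshold. An offset for transcript length left all 7, with 9 factors higher in all, as *Nhp2* and *Rrp36* were added. An offset for GC content left 5 of the 7 and added *Rrp36*, and the calls of *Wdr43* and *Pno1* were lost. Adding surrogate variables brought the log2 fold changes down to 0.06 to 0.19, with adjusted p from 0.0855 for *Pno1* to 0.627 for *Ftsj3* (edgeR's quasi-likelihood test).

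**Figure D3:**
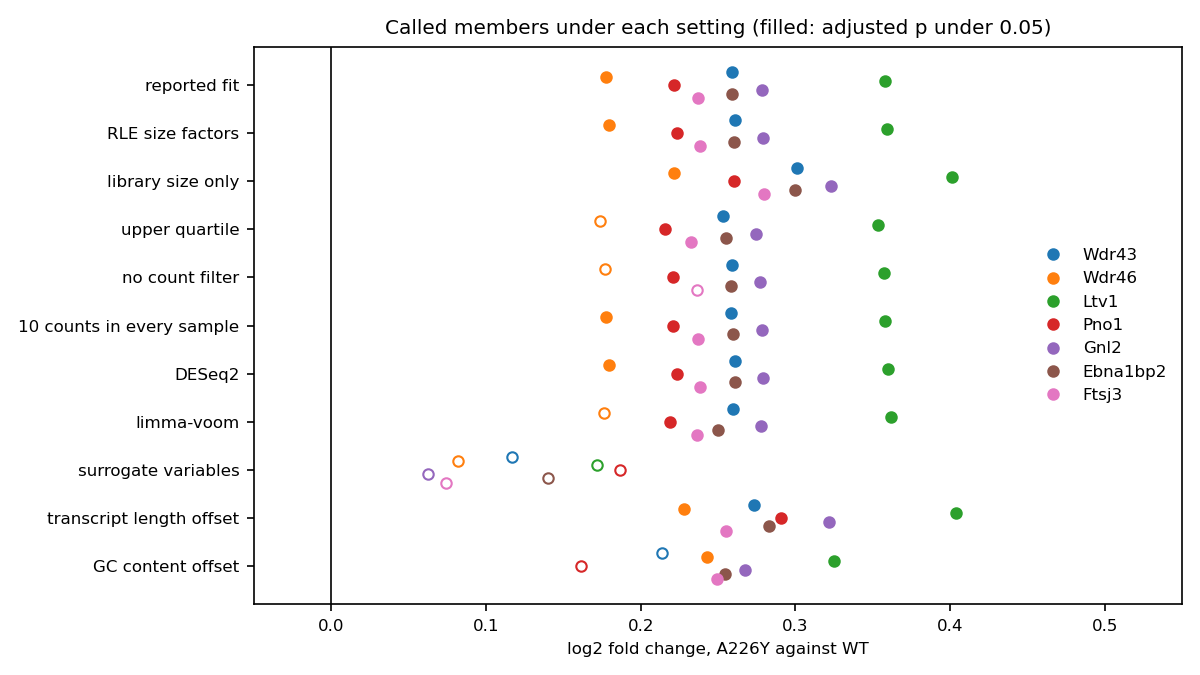
Log2 fold change of the 7 factors (horizontal axis) in the reported fit and under 10 other settings (vertical axis), filled where the adjusted p was under 0.05. All points lie to the right of 0, and in the fit with surrogate variables all 7 are open and the highest is 0.19.

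The 2 subunits were compared by list. Of the 14 small subunit factors named Utp or Wdr with *Nob1*, *Tsr1* and *Bms1*, 2 were higher and 0 lower (median log2 fold change 0.10). Of the 5 large subunit factors *Bop1*, *Pes1*, *Wdr12*, *Nip7* and *Mrto4*, 0 were higher and 0 lower, with a median of 0.09. With all factors of each subunit counted, 4 of 23 small subunit and 3 of 17 large subunit factors were higher, and the medians were 0.11 and 0.10. With 7.27% of all tested genes called higher, lists of this size are too short for these counts to be read as a result about either subunit. Per mouse, the mean log2 CPM of the 14 minus that of the 5, each gene centred over all mice, averaged 0.00 in A226Y (SD 0.08, −0.10 to 0.15) and −0.00 in WT mice (SD 0.09, −0.16 to 0.14). Centring fixes the average of this score over all mice at 0, so only the gap between the genotypes can be read. Their means, 0.0029 in A226Y and −0.0036 in WT mice, lay much closer together than single mice did. Whether the subunits differ was not tested. With surrogate variables the median of the 5 turned to −0.03, and that of the 14 was 0.03.

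Among the 5 large subunit factors, *Bop1*, *Pes1* and *Wdr12* form the PeBoW complex, which is needed to cut the spacer beside the large subunit RNA. *Wdr12* had 10.6, 12.4 and 13.4 CPM in WT and 11.97, 13.4 and 16.6 CPM in A226Y mice, with a log2 fold change of 0.15 (SE 0.07, adjusted p = 0.144, edgeR's quasi-likelihood test). *Bop1* was at 23.2 to 31.9 CPM in WT and 25.1 to 34.3 CPM in A226Y mice (log2 fold change 0.10, SE 0.07). *Pes1* was at 19.5 to 23.96 CPM and 19.6 to 24.1 CPM (0.06, SE 0.05), so its ranges nearly coincided. *Nip7*, an early factor, had a log2 fold change of −0.03 (SE 0.07), and *Mrto4*, which holds the place of a stalk protein on the large subunit, 0.09 (SE 0.11).

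Other subunit factors that did not pass are named here after their values were seen. *Rrp36* had a log2 fold change of 0.22 (SE 0.09, adjusted p = 0.0857), *Gnl3* of 0.27 (SE 0.11, adjusted p = 0.0864) and *Utp20* of 0.19 (SE 0.08, adjusted p = 0.104, all edgeR's quasi-likelihood test). *Gnl3* encodes nucleostemin, a nucleolar GTPase, and ranged from 21.2 to 35.7 CPM in WT and from 21.2 to 39.4 CPM in A226Y mice. *Rrp12*, a transport factor of both subunits, had a log2 fold change of 0.30 with an SE of 0.18 (adjusted p = 0.277, edgeR's quasi-likelihood test), the widest of all factors (5.50 to 10.4 CPM in WT and 5.37 to 17.9 CPM in A226Y mice). *Utp3*, 1 of the 17 factors with a negative value, was at 28.2 to 35.1 CPM in WT and 27.5 to 32.5 CPM in A226Y mice (−0.11, SE 0.05, adjusted p = 0.169, edgeR's quasi-likelihood test).

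None of the 6 RNA polymerase I factors among the 56 passed the test. Of these, 0 were higher and 0 lower, and their median log2 fold change was −0.00. With 7.27% of all tested genes called higher and 7.03% lower, a list of 6 is too short for these counts to be read as a result. *Polr1a*, the largest subunit, had 17.5, 20.3 and 24.7 CPM in WT and 17.0, 19.7 and 25.6 CPM in A226Y mice, so the groups covered the same range. *Rrn3*, which brings the polymerase to the promoter, was at 17.7, 21.5 and 23.7 CPM in WT and 18.1, 21.6 and 24.1 CPM in A226Y mice. *Ubtf*, which binds the ribosomal RNA genes themselves, was at 55.1, 65.4 and 78.5 CPM in WT and 58.0, 66.4 and 76.1 CPM in A226Y mice. Their log2 fold changes were −0.02, 0.03 and 0.01 with SE of 0.08, 0.06 and 0.07. The remaining 3 subunits lay between −0.12 (*Polr1c*) and 0.07 (*Polr1e*).

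Of the 8 snoRNP genes, 0 were higher and 0 lower (median −0.03). This list too is short beside the 7.27% of all tested genes called higher and 7.03% called lower, and no result is read from its counts. *Fbl*, the methyltransferase of box C/D snoRNPs, was at 3.08, 4.17 and 6.10 CPM in WT and 2.31, 4.03 and 5.74 CPM in A226Y mice (log2 fold change −0.05, SE 0.15). *Dkc1*, the pseudouridine synthase of H/ACA snoRNPs, was at 15.6, 17.6 and 21.5 CPM in WT and 13.05, 17.7 and 20.3 CPM in A226Y mice (−0.04, SE 0.08). *Nop56* and *Nop58*, the paired core proteins of box C/D snoRNPs, both had a log2 fold change of 0.18 (SE 0.11 and 0.09) and did not pass (adjusted p = 0.304 and 0.176, edgeR's quasi-likelihood test).

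The nucleolar chaperones had values of opposite sign. *Ncl*, nucleolin, was the most abundant by reads, at 166 to 211 CPM in WT and 182 to 241 CPM in A226Y mice, with a log2 fold change of 0.05 (SE 0.06). *Npm1*, nucleophosmin, had the lowest log2 fold change of the 56 factors: it was at 51.9, 56.3 and 61.7 CPM in WT and 43.7, 48.2 and 61.2 CPM in A226Y mice. In 8 of 10 A226Y mice it was below the WT mean, with A226Y mouse 23 highest and mouse 29 lowest. Its log2 fold change of −0.18 (SE 0.06) missed the threshold (adjusted p = 0.0675, edgeR's quasi-likelihood test; two-sided exact permutation p = 0.0114), and passed with the GC offset (−0.24, adjusted p = 0.0149). It also passed without A226Y mouse 5 or 23 or WT mouse 6, at an adjusted p as low as 0.0182. For *Npm1*, 24.3% of 50-base stretches of its exons occur in other annotated transcripts, most often of a processed pseudogene, so its count is uncertain.

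**Figure D4:**
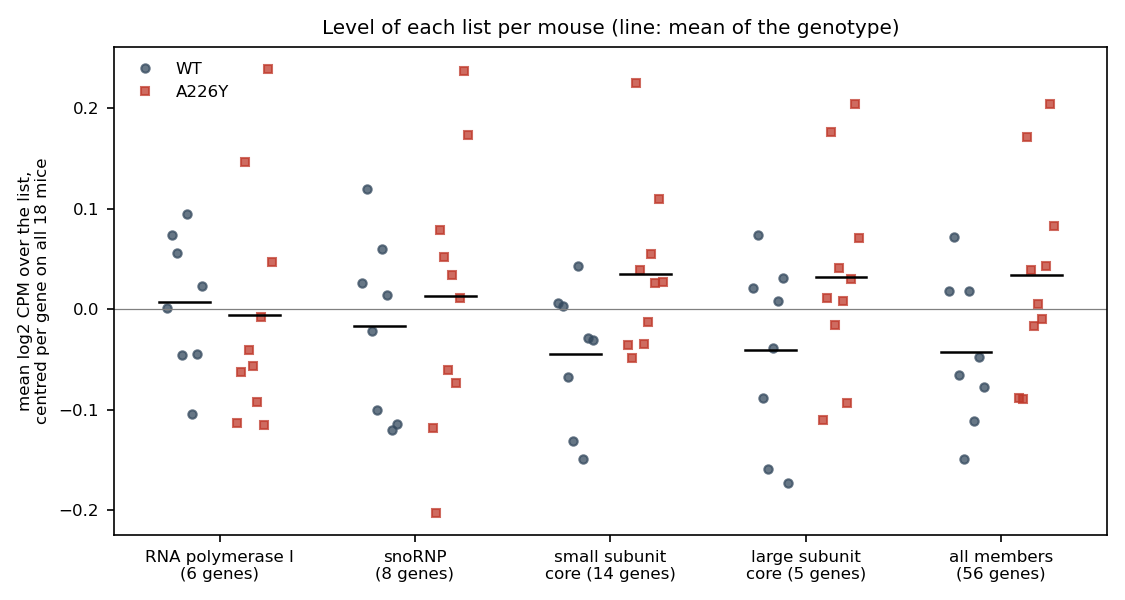
Mean log2 CPM over the genes of each list, each gene centred on the mean of all 18 mice (vertical axis), with 1 point per mouse and a line at the mean of the genotype. Over all 56 factors the A226Y mice lie between −0.09 and 0.20 and the WT mice between −0.15 and 0.07, so the genotypes overlap in every list.

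The mice were not shifted as a block. The mean level of the 56 factors, centred per gene, was highest in A226Y mice 29 (0.20) and 7 (0.17), and lowest in WT mouse 14 (−0.15), with A226Y mice 3 and 5 at −0.09. In WT mouse 6 it was 0.07, above all A226Y mice but 7, 29 and 32. The number of factors above their WT mean was 26, 23, 47, 40, 32, 33, 31, 35, 46 and 40 of 56 in A226Y mice 3, 5, 7, 11, 15, 18, 22, 23, 29 and 32. It was 43, 47, 20, 12, 32, 18, 31 and 27 in WT mice 4, 6, 13, 14, 21, 24, 28 and 33. WT mice thus spanned the whole range, from the fewest in mouse 14 to as many in mouse 6 as in the highest A226Y mouse.

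Levels were compared between factors as CPM per kilobase of exon. In WT mice *Rcl1*, a protein of the processome, was highest (66.1 ± 8.74, SD, n = 8), followed by *Nop10*, the smallest H/ACA protein (33.8 ± 2.78), and *Rrp1*, a large subunit factor (22.9 ± 2.13). The lowest were *Rrp1b* (0.758 ± 0.20), *Fbl* (1.02 ± 0.24) and *Polr1e* (1.02 ± 0.20), which did not differ from one another beyond their spread. The median of the 56 was 4.91 against 3.04 CPM per kilobase over all tested genes, and 40 factors lay above the latter. In A226Y mice *Rcl1* was at 75.3 ± 11.6, *Nop10* at 32.4 ± 4.60 and *Rrp1* at 25.0 ± 3.04 CPM per kilobase (SD, n = 10). The same 3 factors thus led in both genotypes, and their log2 fold changes of 0.19, −0.06 and 0.12 did not pass (adjusted p = 0.202, 0.643 and 0.269, edgeR's quasi-likelihood test). The coefficient of variation between mice had a median of 10.3% in WT and 12.4% in A226Y mice. It was largest for *Rrp1b* in WT mice (26.2%, and 25.8% in A226Y mice). In A226Y mice it was largest for *Rrp12* (33.6%, and 23.98% in WT mice), and *Fbl* came after these genes in both genotypes.

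**Figure D5:**
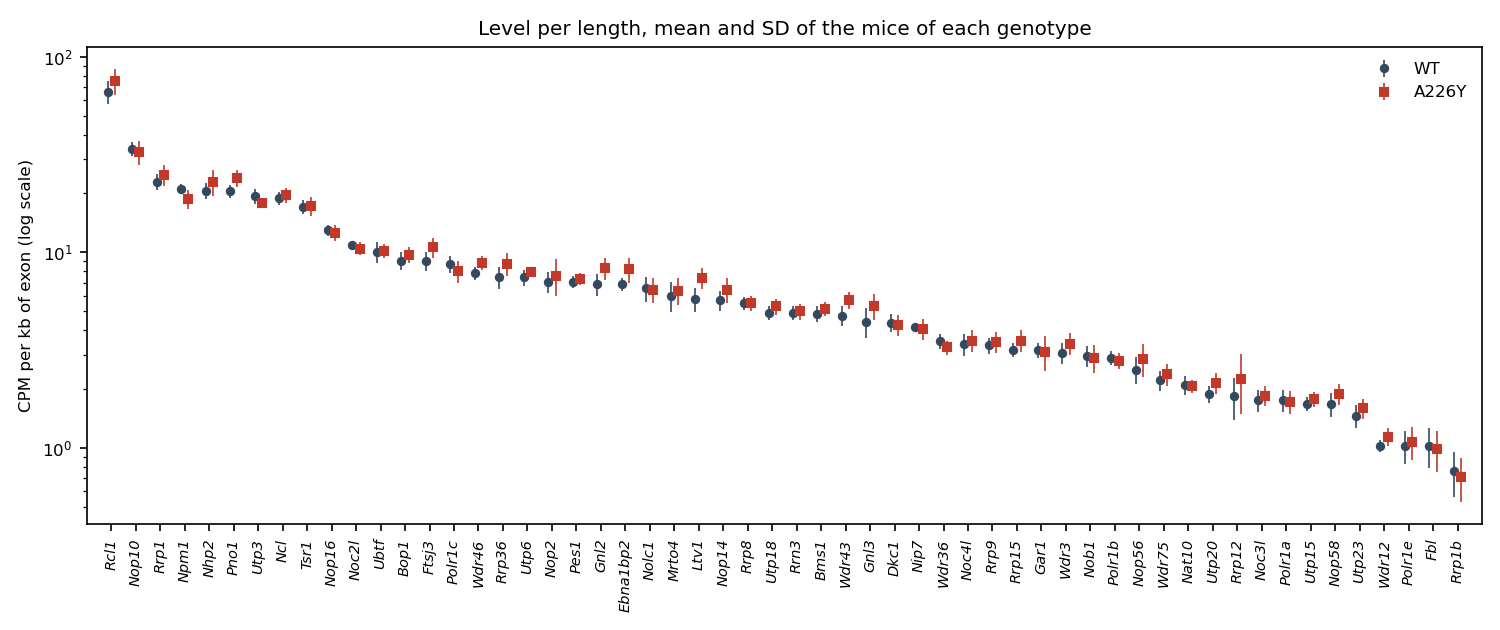
Mean and SD of the CPM per kilobase of exon of the 56 factors in 8 WT and 10 A226Y mice (vertical axis, log scale), ordered by the WT mean. Levels span from 66.1 for *Rcl1* to 0.758 for *Rrp1b*, and WT and A226Y symbols lie close together for every factor.

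Reads could be shared with other genes for some factors. The exons of *Tsr1* overlap those of *Srr* on the opposite strand over 32.3% of their length, those of *Noc2l* overlap *Samd11* over 20.9%, those of *Wdr3* overlap *Spag17* and *Gdap2* over 16.2% and those of *Rrp8* overlap *Ilk* over 9.98%. Shared 50-base stretches made up 23.3% of *Pes1*, 19.7% of *Fbl*, 18.7% of *Nop56*, 12.3% of *Mrto4* and 11.5% of *Utp23*, and these counts are uncertain too. For the 7 factors called higher, shared stretches were at most 1.63% (*Ftsj3*) and exon overlap at most 1.92% (*Pno1*). The factors lie on 19 chromosomes, and 5 are on chromosome 17 with *Rps2*. Of these, *Wdr46* (9.22 Mb away) and *Wdr43* (46.9 Mb) were higher and *Rrp1b* (7.31 Mb), *Polr1c* (21.5 Mb) and *Rrp36* (21.9 Mb) were not called. For genes linked to the targeted allele, the mutation and nearby 129/Sv sequence cannot be told apart.

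Other genes of ribosome biogenesis were followed in 6 lists of 137 symbols, of which 134 were tested. Of these, 13 were higher (9.70%) and 3 lower (2.24%), around a median of 0.05 on the log2 scale, beside 7.27% and 7.03% of all tested genes. With surrogate variables 0 were higher and 2 lower, with the GC offset 8 and 1, and with library size as the only scaling 20 and 1. The 13 fell to 8 without A226Y mouse 7 or WT mouse 13, to 7 without WT mouse 14 and to 6 without WT mouse 24, and without A226Y mouse 29 the number lower was 7. The list of 38 other small subunit factors had 6 higher and 0 lower. *Tbl3*, a processome protein, had 17.0, 18.6 and 21.5 CPM in WT and 20.5, 23.3 and 29.03 CPM in A226Y mice, with 8 A226Y mice above every WT mouse (log2 fold change 0.33, SE 0.07, adjusted p = 0.00579). *Riok3*, an atypical kinase of late small subunit particles, had 83.4, 87.9 and 99.7 CPM in WT and 97.0, 106 and 129 CPM in A226Y mice, with 9 above every WT mouse (0.27, SE 0.06, adjusted p = 0.00515). *Dcaf13* rose by 0.28 (SE 0.08, adjusted p = 0.0314, all edgeR's quasi-likelihood test). *Tbl3* and *Riok3* passed with each mouse left out in turn. *Dcaf13* passed in 14 of 18 fits and was lost without A226Y mouse 11 or WT mouse 14, 21 or 24 (adjusted p up to 0.0626, edgeR's quasi-likelihood test). *Tbl3* lies 10.46 kb from *Rps2*, nearer than any of the 56 factors, so for it too the mutation and sequence linked to the targeted allele cannot be told apart.

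The 47 other large subunit factors had 3 higher (6.38%, beside 7.27% of all tested genes) and 2 lower (beside 7.03%). *Rpf1* (0.25, SE 0.05, adjusted p = 0.00593), *Sdad1* (0.25, SE 0.08, adjusted p = 0.0353) and *Gnl3l* (0.22, SE 0.06, adjusted p = 0.0290) were higher, the last a GTPase related to *Gnl3*. *Nop53*, which recruits the RNA exosome to the large subunit precursor, was at 105, 115 and 136 CPM in WT and 87.4, 94.1 and 113 CPM in A226Y mice. It fell by 0.26 on the log2 scale (SE 0.06, adjusted p = 0.0127, edgeR's quasi-likelihood test) and passed with each mouse left out. *Wdr18*, of the complex with Pelp1 and Tex10, was also lower (−0.24, SE 0.07, adjusted p = 0.0250, edgeR's quasi-likelihood test). *Rpf1* passed with each mouse left out, *Gnl3l* in 15 of 18 fits (not without A226Y mouse 7 or WT mouse 13 or 24), *Wdr18* in 15 (not without WT mouse 13, 14 or 24) and *Sdad1* in 12 (not without A226Y mouse 7 or 32 or WT mouse 13, 14, 24 or 28). Their highest adjusted p were 0.0648 for *Gnl3l*, 0.0554 for *Wdr18* and 0.0739 for *Sdad1* (edgeR's quasi-likelihood test).

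Of 15 other RNA polymerase I genes only *Polr1f*, a subunit of the enzyme, passed: it had 9.88, 11.2 and 12.4 CPM in WT and 11.5, 13.2 and 14.5 CPM in A226Y mice (log2 fold change 0.23, SE 0.06, adjusted p = 0.0127). Of 11 other snoRNP genes *Pih1d1*, a cofactor of snoRNP assembly, was lower (−0.22, SE 0.06, adjusted p = 0.0268, both edgeR's quasi-likelihood test). *Polr1f* passed with each mouse left out, and *Pih1d1* in 17 of 18 fits, the exception being WT mouse 24 (adjusted p = 0.0548, edgeR's quasi-likelihood test). None of the 13 RNA exosome genes passed in either direction (3 higher and 0 lower at an unadjusted p under 0.05). Beside 7.27% higher and 7.03% lower of all tested genes, the lists of this paragraph are too short for their counts to be read as results.

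Of 10 regulators and genes that link ribosome assembly to p53, 3 were higher and 0 lower, beside 7.27% and 7.03% of all tested genes. The number higher was 1 without WT mouse 14, 21 or 24, and 0 with surrogate variables. A list of 10 is too short for these counts to be read as a result about p53. *Mdm2*, the ligase that degrades p53 and is bound by free ribosomal proteins, had 25.1, 29.1 and 30.2 CPM in WT and 28.3, 34.0 and 38.6 CPM in A226Y mice. For 9 of 10 A226Y mice it was above every WT mouse (log2 fold change 0.25, SE 0.06, adjusted p = 0.0132). *Mga*, a partner of Max, rose by 0.29 (SE 0.08, adjusted p = 0.0258). *Cdkn1a*, a cell cycle inhibitor and p53 target, was at 3.46, 13.5 and 19.5 CPM in WT and 9.82, 22.5 and 138 CPM in A226Y mice, the top value being that of mouse 29. Its log2 fold change of 1.40 (SE 0.46, adjusted p = 0.0457) was 0.75 without that mouse (adjusted p = 0.0654, all edgeR's quasi-likelihood test). *Cdkn1a* passed in only 4 of the 18 fits with a mouse left out, those without A226Y mouse 3, 5, 15 or 23 (adjusted p up to 0.0903 in the others), *Mga* in 15 (not without WT mouse 14, 21 or 24, adjusted p up to 0.0580) and *Mdm2* in all 18 (edgeR's quasi-likelihood test). *Cdkn1a* lies 4.37 Mb from *Rps2* on chromosome 17, so linked sequence of the targeted allele cannot be told apart from the mutation for it either. With the surrogate variables *Pih1d1* alone among the 13 pathway genes named with a call remained past the threshold (adjusted p = 0.0386, edgeR's quasi-likelihood test).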

How the data were processed

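For each mouse the authors deposited whole-number counts of single-end 50-base reads per Ensembl gene, without normalization. The submitters' processing notes name bcl2fastq, fastp, STAR, featureCounts and GRCm38, whereas the study's methods name RSEM. The counts do not show strand. Lists were joined by identifier, and 22291 of 22524 matched GENCODE M21 on GRCm38, which gave symbols, exon lengths and overlaps. Mice were grouped by genotype from the labels.

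The members, role lists, pathway lists and named genes were chosen with earlier results of these data known, and no list was tested as a set. Named with values by rule were the members past the threshold, the 5 core large subunit factors, *Polr1a*, *Rrn3*, *Ubtf*, *Fbl*, *Dkc1*, *Ncl*, *Npm1*, *Nob1*, the 3 highest and the 3 lowest levels per length, up to 3 genes higher and 3 lower of each pathway list, *Myc* and *Rps2*. Values of *Nop56*, *Nop58*, *Polr1c*, *Rrp36*, *Gnl3*, *Utp20*, *Rrp12* and *Utp3* were given outside this rule. The tally over 39 named genes does not cover them. *Riok2* and *Exosc6* were not analysed here.

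Genes with at least 10 counts in 50% of the mice of one genotype were tested with edgeR 4.0.16 in R 4.3.3 (TMM scaling, quasi-likelihood fit and two-sided test, no covariates, Benjamini-Hochberg adjustment over 13353 genes, threshold 0.05). The common biological coefficient of variation was 0.194. Exact permutation tests used log2 CPM (prior count 2) over all 43758 divisions of the mice into 10 and 8, and the smallest p they allow is 2.29e-05. The labels do not say whether mice were littermates. Alternatives were RLE, upper quartile and library size scaling, other count filters, DESeq2 1.42.0, limma-voom 3.58.1, 4 surrogate variables (sva 3.50.0), loess offsets on transcript length or GC content (known for 99.6% of tested genes and all 56 members), and leaving out each mouse. The test was tested on simulated data: among 13251 genes it recovered 13 of 50 genes changed 1.2-fold and 46 of 50 changed 1.5-fold, with 9 false calls. Far fewer genes were changed there than passed in the mice, and genes were drawn independently. These rates are therefore not those of the reported fit. Totals of at least 23850565 counts leave the spread between mice as the main limit on precision.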

Additional observations from a re-analysis of the deposited data

Results flagged for a closer look

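Of 80 groups of mice examined (each named gene in each genotype), 5 had a highest or lowest mouse set apart from the rest by Dixon's criterion, a rate that chance gives to about 1 in 20 groups. All 5 were high values of A226Y mouse 23 or 29. In A226Y mouse 23, the most deeply sequenced, *Mrto4* was at 23.04 CPM (next highest A226Y mouse 18.4), *Ncl* at 241 CPM (next 212) and *Dcaf13* at 45.1 CPM (next 33.7). In A226Y mouse 29, *Polr1e* was at 6.05 CPM (next 4.60) and *Cdkn1a* at 138 CPM (next 28.5). Whether sequencing depth or tissue makeup had a part in these values was not tested.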

How the results depend on the processing

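No paired analysis was possible because the genotypes share no replicate numbers. The number of factors higher was 7, and 0 with surrogate variables. Leaving out 1 mouse at a time it was 2 to 9 higher and 0 to 1 lower. The number lower, 0, became 1 (*Npm1*) with the GC offset. Over all genes 1910 passed, 304 with surrogate variables and 1255 to 2560 with a mouse left out. The median log2 fold change of the 5 core large subunit factors, 0.09, was −0.028 with surrogate variables. The log2 fold change of *Rps2* lay between −0.90 and −0.66 under all settings and stayed past the threshold. Some values changed sign. With surrogate variables *Bop1* (0.10 as reported) was −0.028, *Mrto4* (0.09) −0.061, *Rrn3* −0.029, *Ubtf* −0.14 and *Ncl* −0.030. With library size only, which moved the median of all tested genes from −0.00 to 0.04, *Nip7* was 0.014, *Polr1a* 0.023 and *Nob1* 0.0085. With the length offset *Ubtf* was −0.0078, *Ncl* −0.060, *Nob1* 0.016 and *Nop10* 0.015. With the GC offset *Polr1a* was 0.0027, *Rrn3* −0.0019, *Ncl* −0.0029 and *Nob1* 0.0046. The cause of the changes under surrogate variables and offsets was not tested. For 39 named genes other than *Rps2* and 10 settings, 333 of 390 pairs kept direction and side of the threshold, 40 kept direction but no longer passed, 1 newly passed and 16 changed sign. Leaving out a mouse changed the sign in 15 of 702 pairs, with ranges of −0.058 to 0.0049 for *Nip7*, −0.064 to 0.016 for *Polr1a*, −0.0055 to 0.053 for *Rrn3*, −0.019 to 0.055 for *Ubtf*, −0.11 to 0.039 for *Fbl*, −0.066 to 0.0010 for *Dkc1* and −0.0051 to 0.11 for *Polr1e*. On simulated data the test recovered 13 of 50 genes changed 1.2-fold, near the size of the 7 called differences. Far fewer genes were changed there than passed here, so this is not the rate of the reported fit. A factor that did not pass is not shown to be unchanged.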
